A study of Mus musculus with 10 samples.

Results

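The genes of the major histocompatibility complex (MHC) and of antigen processing were described in mature B cells of mouse bone marrow, isolated by FACS from steady-state Chat-GFP animals. Every protein-coding gene of the table whose symbol starts with H2- was taken, together with B2m, Cd74, Ciita, Nlrc5, Tap1, Tap2, Tapbp, Tapbpl, Ctss, Ifi30 and Erap1. This gave 32 of the 14450 genes listed. Of 34 protein-coding H2- genes of the annotation, 22 were listed and 12 were not (11 H2-M genes other than H2-M3 and the DM genes, and H2-T3), and of the 11 genes named one by one all but Ifi30, which codes for a lysosomal thiol reductase, were listed. H2-Ke6 was kept by its symbol but encodes an enzyme and no MHC molecule.

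Bulk RNA-seq libraries were made from Chat+ cells (5 libraries) and from Chat- cells (5 libraries). Chat codes for choline acetyltransferase, the enzyme that makes acetylcholine, and Chat-GFP mice carry a green fluorescent reporter for it. Both groups came from mice of this reporter strain and from the same organ, and the gates of the sort are not described in the labels. The labels do not say whether libraries came from separate mice, so the p-values may cover technical spread alone, and nothing is stated there of age, genetic background or MHC haplotype. The estimated depth was 21530000 to 30060000 reads per library.

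MHC class I molecules are made of a heavy chain and beta-2 microglobulin and present peptides from inside the cell to CD8 T cells. MHC class II molecules are made of an alpha and a beta chain, assemble with the invariant chain Cd74, are loaded in endosomes and present peptides to CD4 T cells. B cells carry both and are professional antigen-presenting cells through class II. The promoters of both classes share an X box, bound by the RFX complex and by CREB-like factors, and a Y box, bound by NF-Y, and the coactivators Ciita (class II) and Nlrc5 (class I) act on them without binding DNA directly.

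These 2 promoter elements are shown because they are described for promoters of both classes, and no other promoter element was examined here. The stretches below are the 120 bases before the RefSeq start of 6 members, in GRCm38.p6, written in the direction of the gene. Capitals mark ATTGG, the core of a Y box, and each TGANG (N is any base), a core found in the X box, that lies 12 to 30 bases before it, and in H2-Eb1 and H2-Q7 overlapping TGANG matches run together.
H2-Aa, chr17:34287824-34287943, minus strand: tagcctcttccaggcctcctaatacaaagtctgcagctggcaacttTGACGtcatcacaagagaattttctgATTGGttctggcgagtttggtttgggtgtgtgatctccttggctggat
H2-Eb1, chr17:34305747-34305866, plus strand: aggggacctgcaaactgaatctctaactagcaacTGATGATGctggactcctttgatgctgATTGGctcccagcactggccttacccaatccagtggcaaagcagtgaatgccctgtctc
H2-Ob, chr17:34238785-34238904, plus strand: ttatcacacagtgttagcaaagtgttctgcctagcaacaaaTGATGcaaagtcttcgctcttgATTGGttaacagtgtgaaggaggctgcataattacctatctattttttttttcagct
H2-K1, chr17:34000348-34000467, minus strand: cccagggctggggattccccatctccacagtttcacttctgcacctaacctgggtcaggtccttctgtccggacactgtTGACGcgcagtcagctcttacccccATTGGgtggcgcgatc
B2m, chr2:122147567-122147686, plus strand: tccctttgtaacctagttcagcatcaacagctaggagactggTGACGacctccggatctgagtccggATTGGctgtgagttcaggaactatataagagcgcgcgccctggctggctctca
H2-Q7, chr17:35439035-35439154, plus strand: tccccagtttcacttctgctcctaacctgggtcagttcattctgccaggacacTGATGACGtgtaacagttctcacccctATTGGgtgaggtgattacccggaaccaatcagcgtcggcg

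In the 24 members with an entry in the RefSeq promoter table (250 bases before to 50 bases after the start), the pair of TGANG and ATTGG on the gene strand was found in 6 of 8 class II genes, in 7 of 11 class I genes and in 0 of the 5 other members (Tap1, Tapbp, Erap1, Ctss and H2-Ke6). Of all 32851 promoters of the table, 2.39% held it on the gene strand and 4.32% on either strand. The longer TGATTGG, which contains ATTGG, was found on the gene strand in 7 of 8 class II promoters, all but that of H2-DMa, in 1 of 11 class I promoters, that of H2-T22, and in 0 of the 5 others, against 4.01% of all promoters. On either strand it was found in 7 of 8 class II promoters, in 7 of 11 class I promoters and in 1 of the 5 others, against 7.82% of all promoters. The classes thus differed in the strand of this longer match, which in H2-K1, H2-D1, H2-Q4, H2-Q6, H2-Q7 and H2-T23 lay on the opposite strand. All of these but H2-T23 also held the pair of TGANG and ATTGG on the gene strand, as most class II promoters did. Their opposite-strand match is thus a site other than the ATTGG of the pair, and not that ATTGG turned around. These are matches of letters in a fixed window and say nothing of binding.

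The sorted cells carried transcripts of the labelled B cell identity, beside transcripts listed as markers of other cells. The B cell receptor signalling chain Cd79a was at 1854 to 2160 CPM (reads of a gene scaled to a common total per library) in Chat+ libraries and at 2085 to 2278 CPM in Chat- libraries. The B cell surface marker Ms4a1 was at 1438 to 2391 CPM in Chat+ libraries and at 1390 to 2158 CPM in Chat- libraries, and Pax5, the transcription factor of B cell identity, at 1133 to 1412 CPM in Chat+ libraries and at 1318 to 1430 CPM in Chat- libraries. Cd79b, Ighm, Ighd, Cr2, Fcer2a and Cd22 were each above 0 in every library. Chat was at 31.1 to 110.6 CPM in Chat+ libraries and at 1.17 to 19.7 CPM in Chat- libraries, without overlap (log2 fold change 3.64 ± 0.59 SE, limma adjusted p = 0.087). Of 9 T and NK cell markers, 8 were not listed, and the remaining one, Cd4, was at most at 1.27 CPM in Chat+ libraries and 0.845 CPM in Chat- libraries. Dendritic cells and macrophages also carry class II. Of 10 conventional dendritic cell markers 6 were listed, with sums of 34.0 to 55.6 CPM in Chat+ libraries and 16.2 to 41.3 CPM in Chat- libraries, mostly from Sirpa (31.2 to 46.5 CPM in Chat+ and 10.99 to 28.2 CPM in Chat-), while the other 5, Flt3, Zbtb46, Xcr1, Itgax and Cd209a, each had at most 3.22 CPM in Chat+ libraries and 6.32 CPM in Chat- libraries. The 8 plasmacytoid dendritic cell markers summed to 296 to 363 CPM in Chat+ libraries and to 251 to 357 CPM in Chat- libraries, mostly from Tcf4, and Siglech had at most 2.12 CPM in Chat+ libraries and 7.26 CPM in Chat- libraries. The 14 monocyte and macrophage markers summed to 74.0 to 119.2 CPM in Chat+ libraries and to 54.1 to 240.9 CPM in Chat- libraries, with the highest sum in Chat- replicate 4. The 7 erythroid markers summed to 529 to 883 CPM in Chat+ libraries and to 451 to 1082 CPM in Chat- libraries. The 9 neutrophil markers summed to 21.8 to 137.7 CPM in Chat+ libraries and to 45.4 to 115.6 CPM in Chat- libraries. Of 12 stromal and endothelial markers 9 were listed, with sums of 283 to 411 CPM in Chat+ libraries and 299 to 548 CPM in Chat- libraries. The highest sum was again in Chat- replicate 4. Of these sums Pecam1 had 247 to 261 CPM in Chat+ libraries and 177 to 284 CPM in Chat- libraries. Col1a1 reached 42.4 CPM in Chat+ libraries and 110.8 CPM in Chat- libraries, and Kdr at most 5.38 CPM in Chat+ and 8.36 CPM in Chat-. The part of these other cell types in the levels below was not tested. In bulk RNA fewer cells of a type and less RNA per cell cannot be told apart.

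Chat+ replicates 3 and 5 and Chat- replicate 4 stood apart from the other 7 libraries in measures over all genes. They had 458 to 1213 genes at the table's lowest value, against 62 to 312 genes in the others. Their deviations from each gene's median over the libraries correlated with transcript GC content at -0.33 to -0.29, against 0.02 to 0.18 in the others. That correlation was taken over 8918 genes with a mean of at least 10 CPM, members included. Mitochondrial genes made up 11.9% of CPM in Chat- replicate 4 and 2.27% to 3.85% in the other 9 libraries. Results on the members are therefore given with and without these 3 libraries.

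No MHC or antigen processing gene differed between Chat+ and Chat- B cells beyond the spread between libraries once p-values were adjusted over all genes. In the limma fit over all genes, 0 of 32 members passed an adjusted p of 0.05, where 1 of 14450 genes (0.00692%) did. At an unadjusted p under 0.05 there was 1 member (3.12%), Tapbpl, which was lower in Chat+ cells, against 4.51% of all genes, made up of 3.49% higher and 1.01% lower. The groups overlapped for every member, whereas 1.43% of all genes had groups that did not overlap. The estimate was above 0 for 9 members and below 0 for 23, with a median log2 fold change of -0.04, beside 0.04 over all genes, and it ran from -0.32 (Tapbpl) to 0.32 (H2-Q2). The 95% confidence interval of every member lay within a 2-fold change in either direction, and that of 24 members within a 1.5-fold change. No difference was thus detectable in these libraries, and the intervals give the size of difference that they leave possible.

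**Figure D1:**
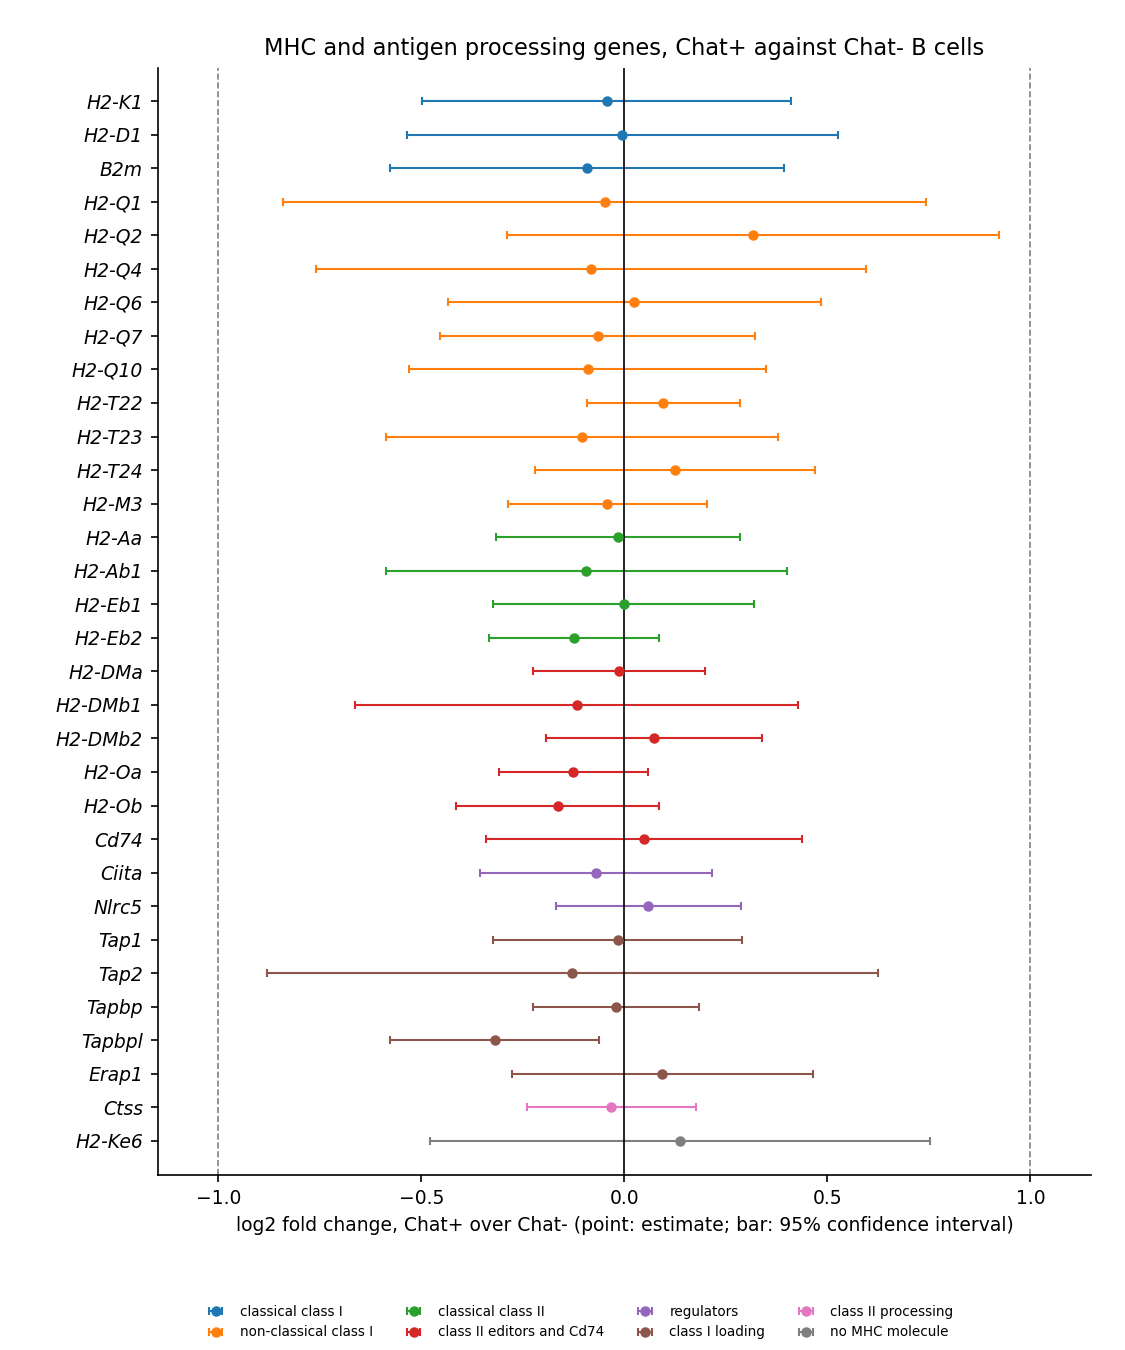
Log2 fold change of the 32 members, Chat+ over Chat- (5 libraries each), as the limma estimate (point) and its 95% confidence interval (bar), in role groups from class I at the top to H2-Ke6 at the bottom. The dashed lines are a 2-fold change, and every interval lies between them. The interval of Tapbpl, from -0.58 to -0.06, is the only one that does not cross 0.

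The order of levels, read per length of the longest coding transcript, was led by class II genes in both groups. Cd74 was highest, at 8007 ± 358 CPM per kb in Chat+ cells and 7760 ± 620 CPM per kb in Chat- cells (SD over 5 libraries each, here and below). H2-Aa followed at 3408 ± 407 CPM per kb in Chat+ cells and 3430 ± 192 CPM per kb in Chat- cells, then H2-Ab1 at 2411 ± 507 CPM per kb in Chat+ cells and 2609 ± 648 CPM per kb in Chat- cells. H2-Eb1 (1682 ± 158 CPM per kb in Chat+ cells and 1697 ± 273 in Chat- cells), B2m (1544 ± 311 in Chat+ cells and 1706 ± 685 in Chat- cells) and H2-K1 (1370 ± 318 in Chat+ cells and 1410 ± 304 in Chat- cells) lay within each other's spread. At the low end were the coactivator Nlrc5, with 8.36 ± 0.90 CPM per kb in Chat+ cells and 8.0 ± 0.54 in Chat- cells, and the class I genes H2-Q2 and H2-Q1, each under 5 CPM per kb in both groups. Ciita, at 70.1 ± 6.3 CPM per kb in Chat+ cells and 74.5 ± 14.3 in Chat- cells, was well above Nlrc5. All 32 members together took 3.43% ± 0.14 of the CPM in Chat+ libraries and 3.48% ± 0.32 in Chat- libraries.

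**Figure D2:**
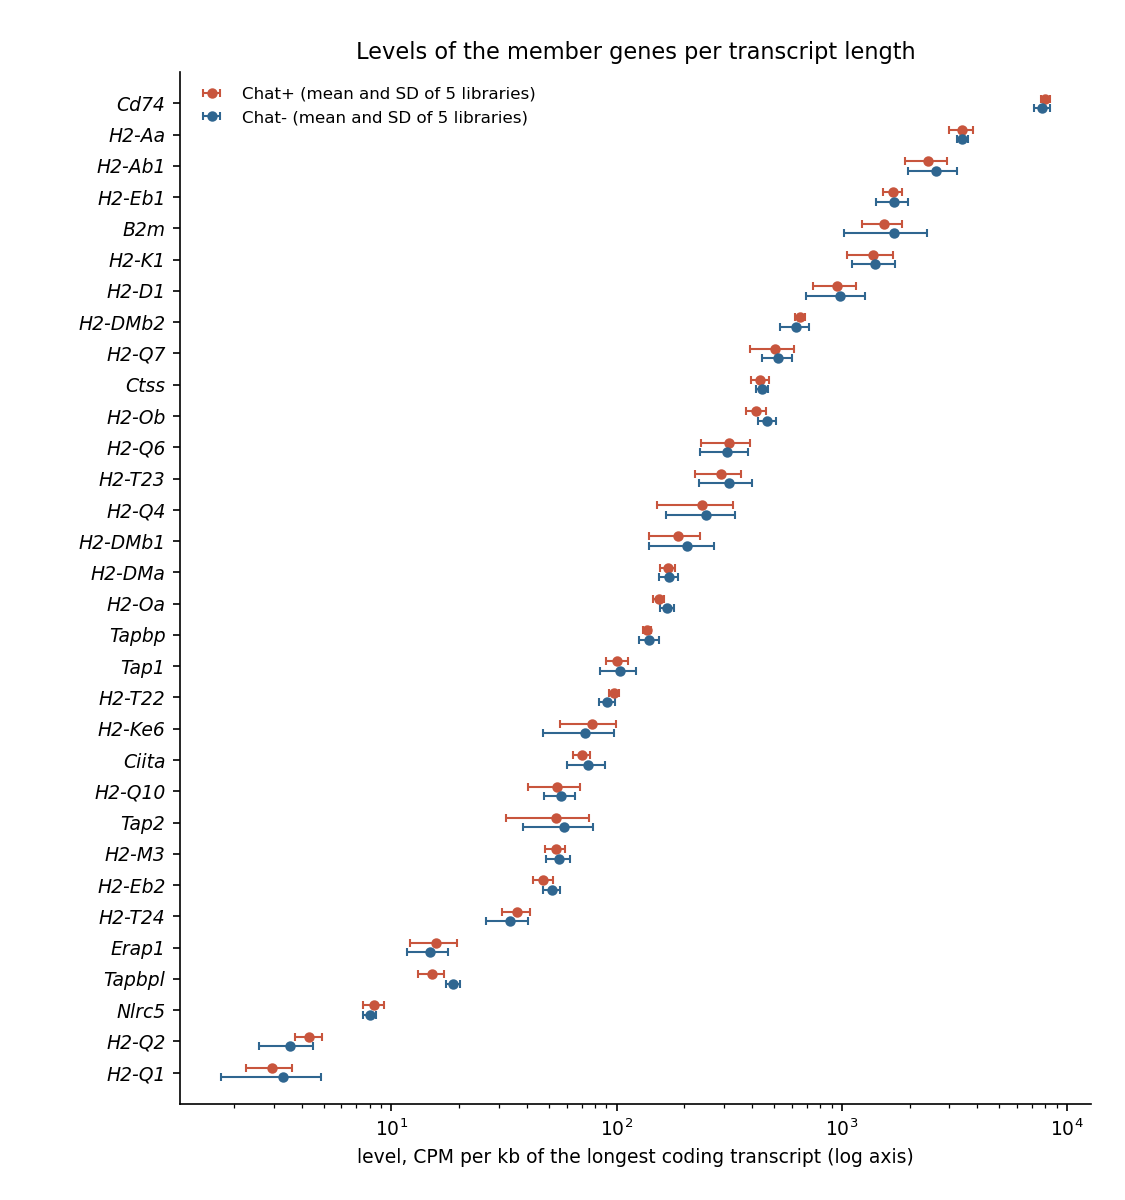
Level of each member in CPM per kb of its longest coding transcript (log axis), as mean and SD of 5 Chat+ libraries and of 5 Chat- libraries. Both groups give nearly the same order, from Cd74 at 8007 CPM per kb in Chat+ and 7760 in Chat- down to H2-Q1 and H2-Q2.

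Of the 3 classical class I genes, 0 passed the test. H2-K1 (chr17:33996017-34000347, minus strand), a heavy chain, had 2690, 2626, 1767, 2434 and 1570 CPM in Chat+ replicates 1 to 5, against 2651, 2625, 2451, 1454 and 2234 CPM in Chat- replicates 1 to 5. The low values were those of the 3 libraries that stood apart, and the groups overlapped over nearly their whole range. Its log2 fold change was -0.04 ± 0.21 (SE), with a 95% interval of -0.50 to 0.41. H2-D1 (chr17:35262730-35267499), the other listed classical heavy chain, had 2484, 2281, 1537, 2124 and 1560 CPM in Chat+ libraries, against 2498, 2448, 2247, 1032 and 2071 CPM in Chat- libraries, with the same libraries low in both groups and an interval of -0.54 to 0.53. B2m (chr2:122147686-122153083), the light chain of all class I molecules, had 1097, 1239, 1522, 1091 and 1689 CPM in Chat+ libraries, against 1170, 1176, 1088, 2499 and 1402 CPM in Chat- libraries. Here the same 3 libraries were high, and the log2 fold change was -0.09 ± 0.22.

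The 10 non-classical class I genes were estimated higher in 4 and lower in 6, with a median of -0.05, and 0 were called. H2-Q7 and H2-Q6, which code for the Qa-2 antigen, were the highest of them, with 767 ± 169 CPM for H2-Q7 in Chat+ cells and 791 ± 120 CPM in Chat- cells. H2-Q6 averaged 656 ± 162 CPM in Chat+ cells and 642 ± 153 CPM in Chat- cells. H2-T23, which codes for Qa-1, a ligand of the inhibitory NK receptor CD94/NKG2A, averaged 427 ± 100 CPM in Chat+ cells and 464 ± 123 CPM in Chat- cells. The narrowest interval was that of H2-T22, a ligand of some gamma-delta T cells, with 171 ± 8.7 CPM in Chat+ cells and 160 ± 13.4 CPM in Chat- cells and a log2 fold change of 0.10 (-0.09 to 0.29). H2-M3, which presents N-formylated bacterial peptides, averaged 77.0 ± 7.6 CPM in Chat+ cells and 79.5 ± 9.9 CPM in Chat- cells. The widest interval was that of H2-Q1, with 5.95 ± 1.37 CPM in Chat+ cells and 6.70 ± 3.13 CPM in Chat- cells.

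These genes resemble each other, and their separate values carry an uncertainty of assignment. In 13 members more than 10% of the sequence, cut into 31-base words, was found in another gene's transcripts as well. All of H2-K1, H2-D1, the H2-Q genes, H2-T22 and H2-T23 are among them, with 51.0% for H2-T22, mostly shared with H2-T10. The same holds for H2-DMb1 (31.4%, all with H2-DMb2) and for H2-Ke6 (76.1%, with Gm20427). The sum of H2-Q6 and H2-Q7 was 1422 ± 326 CPM in Chat+ cells and 1434 ± 209 CPM in Chat- cells.

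The classical class II chains had estimates between -0.12 and -0.0020, and 0 of 4 were called. H2-Aa (chr17:34282744-34287823, minus strand), the alpha chain of I-A, had 3369, 3639, 4021, 3639 and 4552 CPM in Chat+ libraries, against 3795, 3805, 3654, 3861 and 4231 CPM in Chat- libraries, for a log2 fold change of -0.02 ± 0.14. The Chat- values lay inside the Chat+ range. H2-Ab1 (chr17:34257689-34269419), its partner beta chain, had 3287, 3523, 2069, 3244 and 2488 CPM in Chat+ libraries, against 3542, 3540, 3310, 1775 and 3642 CPM in Chat- libraries, for -0.09 ± 0.23. Unlike H2-Aa, it was low in the 3 libraries that stood apart. H2-Eb1 (chr17:34305867-34316674), the beta chain of I-E, had 2516, 3046, 2553, 2855 and 3071 CPM in Chat+ libraries, against 2719, 2964, 2830, 2192 and 3455 CPM in Chat- libraries, with an interval of -0.32 to 0.32. H2-Eb2, a related beta chain gene, had 145, 157, 168, 149 and 184 CPM in Chat+ libraries, against 167, 173, 158, 178 and 197 CPM in Chat- libraries (-0.12 ± 0.10). Its groups overlapped, with the highest value in a Chat- library and the lowest in a Chat+ library.

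Cd74 (chr18:60803848-60812652), the invariant chain that fills the class II groove before peptide loading, was the most abundant member. It had 10546, 11562, 11678, 10988 and 11679 CPM in Chat+ libraries, against 11463, 11365, 10959, 9424 and 11494 CPM in Chat- libraries, 1.13% ± 0.05 of the CPM in Chat+ libraries and 1.09% ± 0.09 in Chat- libraries. The groups overlapped, and the log2 fold change was 0.05 ± 0.18.

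H2-DM exchanges the invariant chain fragment for antigenic peptide, and H2-O, which is typical of B cells, inhibits H2-DM. H2-DMa had 336, 369, 341, 300 and 352 CPM in Chat+ libraries, against 368, 336, 337, 294 and 381 CPM in Chat- libraries (log2 fold change -0.01 ± 0.10). H2-DMb1 had 287, 312, 267, 296 and 148 CPM in Chat+ libraries, against 354, 364, 346, 180 and 197 CPM in Chat- libraries (-0.12 ± 0.25). H2-DMb2 had 987, 950, 928, 919 and 1046 CPM in Chat+ libraries, against 1028, 946, 932, 692 and 1033 CPM in Chat- libraries (0.07 ± 0.12). The subunit genes of DM thus overlapped between the groups, and H2-DMb1 was low in a pair of libraries in Chat- and in a single one in Chat+. H2-Oa had 154, 170, 180, 161 and 172 CPM in Chat+ libraries, against 173, 178, 171, 197 and 194 CPM in Chat- libraries (-0.13 ± 0.08, interval -0.31 to 0.06). H2-Ob had 1113, 1132, 1206, 1195 and 923 CPM in Chat+ libraries, against 1244, 1298, 1302, 1338 and 1054 CPM in Chat- libraries (-0.16 ± 0.12, interval -0.42 to 0.09). For both H2-O chains most Chat+ libraries lay below most Chat- libraries, but the groups overlapped and both intervals crossed 0. The ratio of H2-DMa to its inhibitor's chain H2-Oa was 2.03 ± 0.15 in Chat+ libraries and 1.89 ± 0.24 in Chat- libraries.

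Of the 2 coactivators, 0 passed the test. Ciita, the master regulator of class II transcription, had 399, 391, 432, 402 and 483 CPM in Chat+ libraries, against 416, 460, 448, 338 and 575 CPM in Chat- libraries, and both the lowest and the highest value were Chat- libraries (log2 fold change -0.07 ± 0.13). Nlrc5, which acts on class I promoters, had 62.0, 69.6, 67.1, 66.1 and 52.2 CPM in Chat+ libraries, against 54.7, 65.5, 63.1, 60.2 and 59.7 CPM in Chat- libraries (0.06 ± 0.10). Its Chat- values lay inside the Chat+ range.

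Of the genes that load class I molecules, Tapbpl alone had an unadjusted limma p under 0.05. It was also the only such member of the 32 (3.12%), beside 4.51% of all genes. TAPBPR, its product, is a peptide editor of class I molecules that works outside the peptide-loading complex. Tapbpl (chr6:125223933-125231860, minus strand) had 41.9, 36.8, 32.2, 37.7 and 29.99 CPM in Chat+ libraries, against 48.1, 46.8, 42.1, 40.5 and 44.3 CPM in Chat- libraries. All but the highest Chat+ library lay below every Chat- library. The log2 fold change was -0.32 ± 0.12, with an interval of -0.58 to -0.06, and the limma adjusted p over all genes was 0.977. It did not pass under any alternative tried, in which it ranged between -0.38 and -0.22 with adjusted p between 0.18 and 1.0.

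The peptide transporter subunit Tap1 had 341, 315, 272, 302 and 259 CPM in Chat+ libraries, against 323, 362, 324, 211 and 304 CPM in Chat- libraries (log2 fold change -0.02 ± 0.14). The other subunit, Tap2, had 242, 250, 100, 226 and 109 CPM in Chat+ libraries, against 248, 236, 241, 82.1 and 202 CPM in Chat- libraries (-0.13 ± 0.35). Tap2 was at 82.1 to 109 CPM in the 3 libraries that stood apart and at 202 to 250 CPM in the other 7, and the groups overlapped. Tapbp, the tapasin of the loading complex, had 396, 422, 378, 393 and 394 CPM in Chat+ libraries, against 426, 429, 398, 334 and 432 CPM in Chat- libraries, the narrowest relative spread of the loading genes in Chat+ cells (-0.02 ± 0.09). Erap1, the aminopeptidase that trims peptides in the endoplasmic reticulum, had 75.2, 78.1, 90.2, 77.7 and 126 CPM in Chat+ libraries, against 75.4, 69.5, 68.2, 103 and 102 CPM in Chat- libraries (0.09 ± 0.17). Ctss, the cathepsin that cleaves the invariant chain in B cells, had 513, 619, 580, 572 and 654 CPM in Chat+ libraries, against 600, 625.1, 586, 549 and 638 CPM in Chat- libraries (-0.03 ± 0.10). H2-Ke6, the hydroxysteroid dehydrogenase gene inside the complex, averaged 87.8 ± 24.4 CPM in Chat+ cells and 81.8 ± 28.5 CPM in Chat- cells.

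Class II was then set against class I. The summed CPM of the 4 class II chains was 9735 ± 664 in Chat+ libraries and 10038 ± 1283 in Chat- libraries, and that of H2-K1 and H2-D1 was 4215 ± 939 in Chat+ libraries and 4342 ± 1091 in Chat- libraries. Their ratio per library was 1.80, 2.11, 2.67, 2.17 and 3.29 in Chat+ replicates 1 to 5, against 1.99, 2.07, 2.12, 3.22 and 2.68 in Chat- replicates 1 to 5. The difference between the group means of its log2 was -0.01, far below the SDs of 0.34 in Chat+ libraries and 0.30 in Chat- libraries. These ratios compare libraries and not levels between genes, since they are not set per length. Over the 13 class I genes with B2m, 4 estimates were above 0 and 9 below, with a median of -0.04, and over the 10 class II genes with Cd74, 2 were above 0 and 8 below, with a median of -0.06.

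Left without the 3 libraries that stood apart, the comparison had 3 Chat+ and 4 Chat- libraries. All 10 class II genes then had an estimate below 0, with a median of -0.09, and of the class I genes 8 were above 0 and 5 below, with a median of 0.05, beside a median of 0.03 over all genes. The members at an unadjusted p under 0.05 were H2-Eb2 (log2 fold change -0.21), Ciita (-0.25) and Tapbpl (-0.22), 9.38% of the members beside 7.27% of all genes, with limma adjusted p of 0.644, 0.644 and 0.669. Again 0 members passed, where 17 genes (0.118%) did. The direction of the class I estimates depended on single libraries. Without Chat+ replicate 5, 12 of 13 were above 0 (median 0.10, beside 0.06 over all genes), and without Chat- replicate 4, 3 of 13 were (median -0.09, beside -0.0017). The class I median was also above 0 without Chat+ replicate 3 (0.01, beside 0.04 over all genes). The same held without Chat- replicate 1 (0.03, beside 0.05) and without Chat- replicate 2 (0.02, beside 0.05). In these fits it stayed below the median over all genes. The class II median stayed between -0.09 and -0.0073 with any single library left out.

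The larger differences in these genes were between libraries within each group. In the 3 libraries that stood apart, 8 members (25.0%) lay below all other 7 libraries, beside 9.52% of all genes. They were H2-K1, H2-D1, H2-Q1, H2-Q4, H2-T23, H2-Ab1, Tap1 and Tap2. B2m alone lay above all 7, beside 4.87% of all genes. These are descriptions, since the 3 libraries were set apart by their own data. The cut was 400 genes at the lowest value, and no member was at that value in any library.

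**Figure D3:**
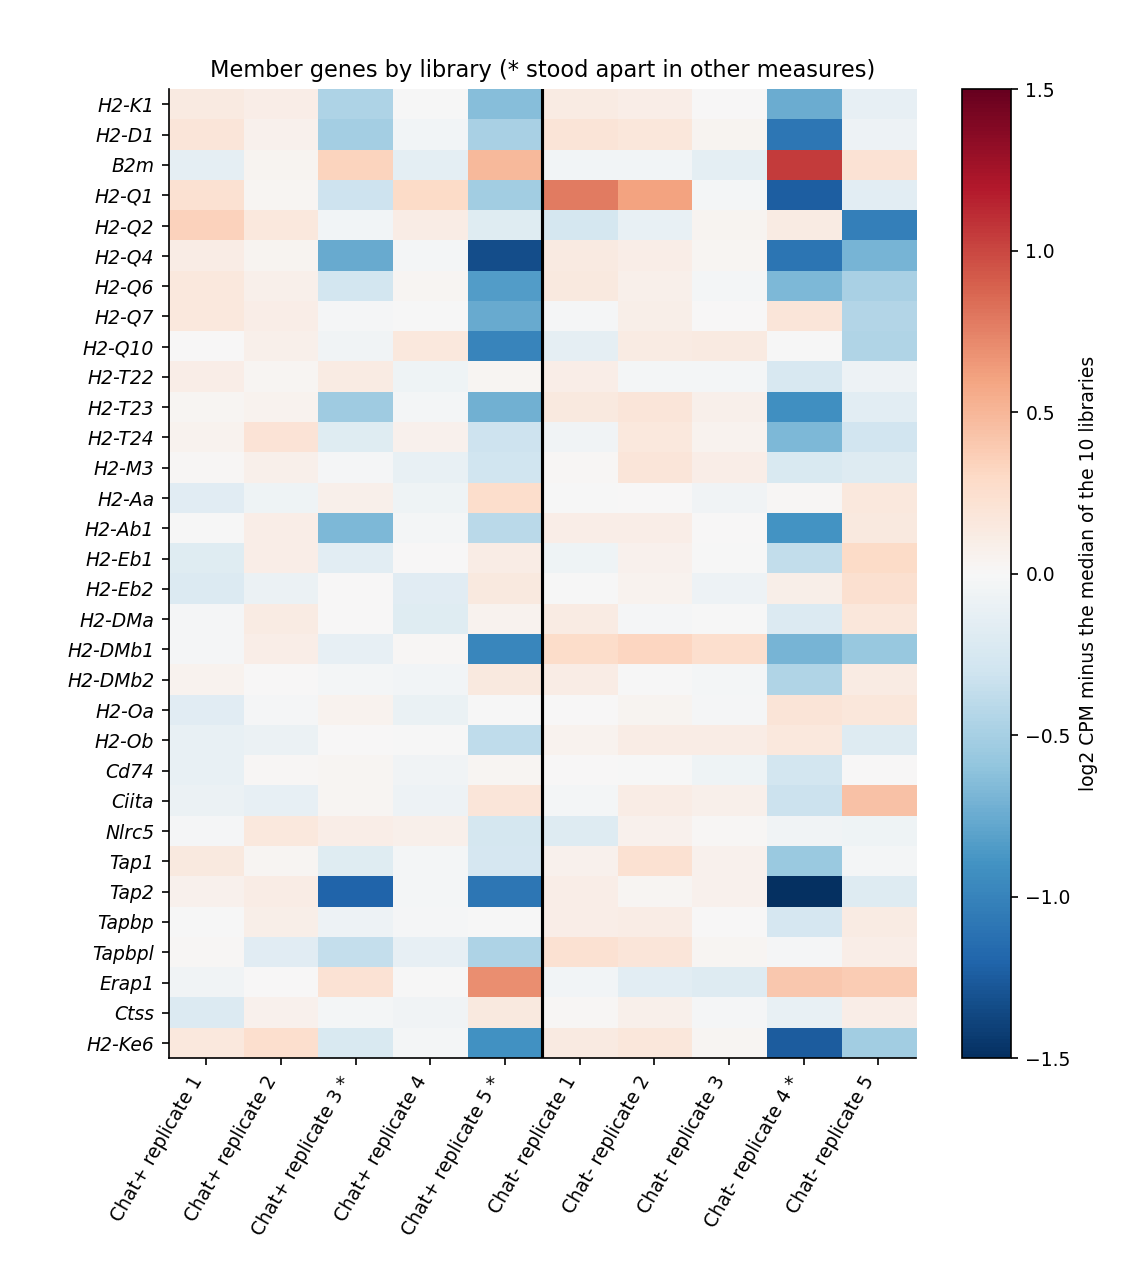
Log2 CPM of each member in each library, less the median of the 10 libraries, with Chat+ libraries left of the black line and Chat- libraries right of it (red is higher, blue is lower). The columns with an asterisk are the 3 libraries that stood apart, and in them Tap2, H2-Ab1, H2-K1 and H2-D1 are blue and B2m is red in both groups.

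Of the ratios between genes whose products form one complex, some set those libraries apart and others did not. The ratio of H2-Ab1 to H2-Aa, the chains of I-A, was 0.98, 0.97, 0.51, 0.89 and 0.55 in Chat+ replicates 1 to 5, against 0.93, 0.93, 0.91, 0.46 and 0.86 in Chat- replicates 1 to 5. It was 0.46 to 0.55 in the 3 libraries and 0.86 to 0.98 in the other 7, whatever the group. The ratio of Tap2 to Tap1 was 0.37 to 0.42 in the 3 and 0.65 to 0.79 in the other 7. B2m over the sum of H2-K1 and H2-D1 was 0.46 to 1.01 in the 3 and 0.21 to 0.33 in the other 7. The ratios of the editor chains overlapped between the 3 and the other 7. H2-DMb1 over H2-DMa was 0.42 to 0.78 in the 3 and 0.52 to 1.08 in the other 7, H2-DMb2 over H2-DMa was 2.35 to 2.97 in the 3 and 2.58 to 3.06 in the other 7, and H2-Ob over H2-Oa was 5.36 to 6.78 in the 3 and 5.44 to 7.62 in the other 7. For H2-DMb1 over H2-DMa and H2-Ob over H2-Oa, the lowest of the other 7 was Chat- replicate 5. The lowest of the 3 was Chat+ replicate 5 for both. Class II over class I also overlapped, at 2.67 to 3.29 in the 3 and 1.80 to 2.68 in the other 7.

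**Figure D4:**
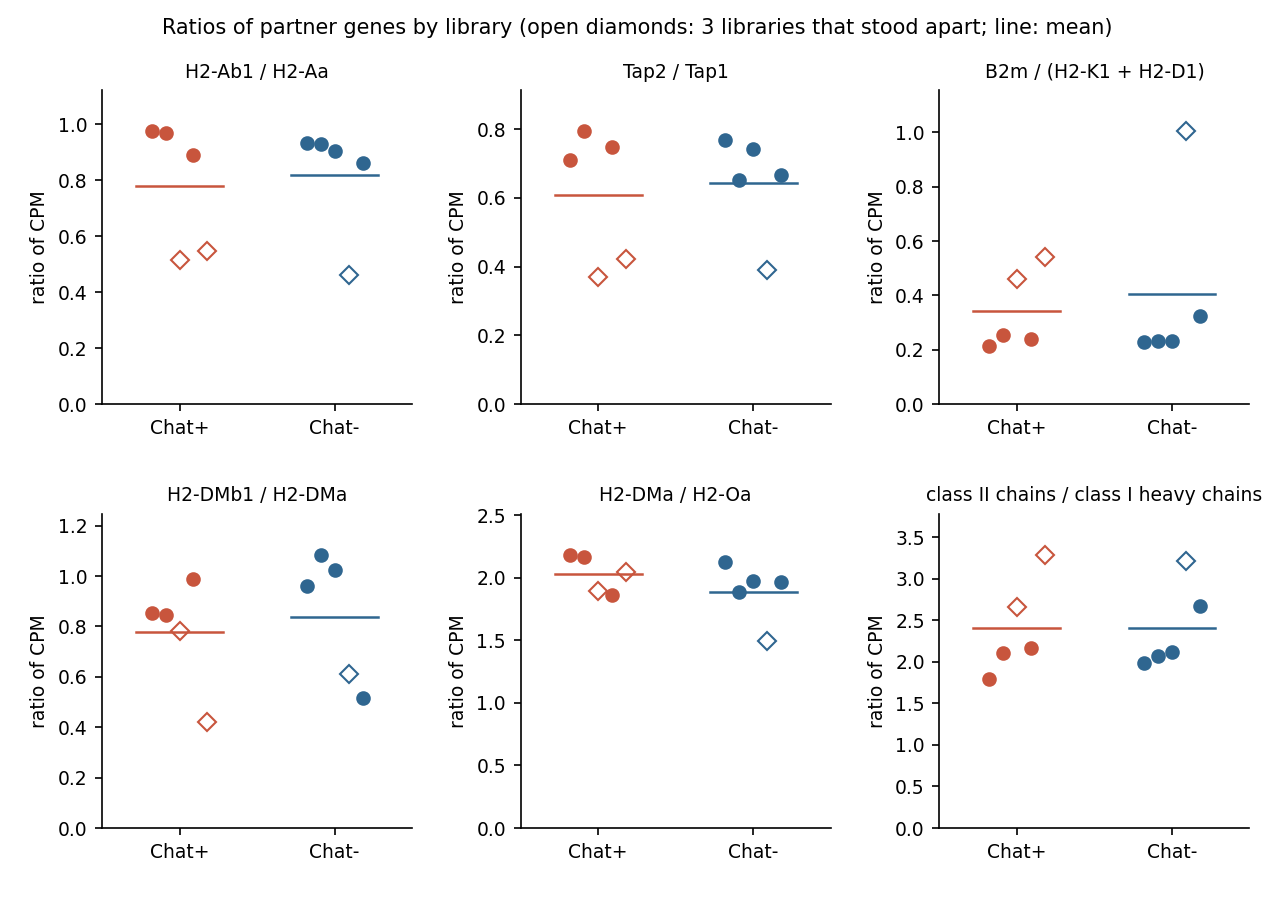
Ratios of CPM between partner genes in each library, Chat+ left and Chat- right in each panel, with the group mean as a line. Open diamonds are the 3 libraries that stood apart. In the panels of H2-Ab1 over H2-Aa and Tap2 over Tap1 they lie below all filled points, at 0.46 to 0.55 and 0.37 to 0.42, and in that of B2m over H2-K1 plus H2-D1 above them.

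The correlation with GC content was one of the measures in which the 3 libraries stood apart, so that their difference from the other 7 follows GC content over all genes is no separate finding, and it is given here to place the members. Across the 32 members its correlation with transcript GC content was -0.53, and across 8918 genes with a mean of at least 10 CPM it was -0.46, where the points share the same libraries and genes are not replicates. B2m, at 41.2% GC, was higher in the 3 libraries by 0.66 on the log2 scale, and Erap1, at 41.5%, by 0.44. H2-Ab1 (57.3%) differed by -0.72, H2-K1 (56.3%) by -0.67 and H2-D1 (55.9%) by -0.77. Members of like GC content did not all do so: Tap2 (56.9%) differed by -1.28, Tapbp (57.1%) by -0.17 and Cd74 (56.6%) by -0.04. After each library was adjusted for GC content, the differences were -0.33 for H2-Ab1, -0.34 for H2-K1, -0.44 for H2-D1, -0.89 for Tap2 and 0.53 for B2m, all nearer to 0 than before. Others lay farther from 0 than before, with 0.34 for Cd74, 0.50 for H2-Q2 (0.07 before) and 0.42 for H2-Oa (0.09 before), and Tapbp was at 0.22, with its sign turned. With that adjustment the comparison of Chat+ with Chat- cells again called 0 members.

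**Figure D5:**
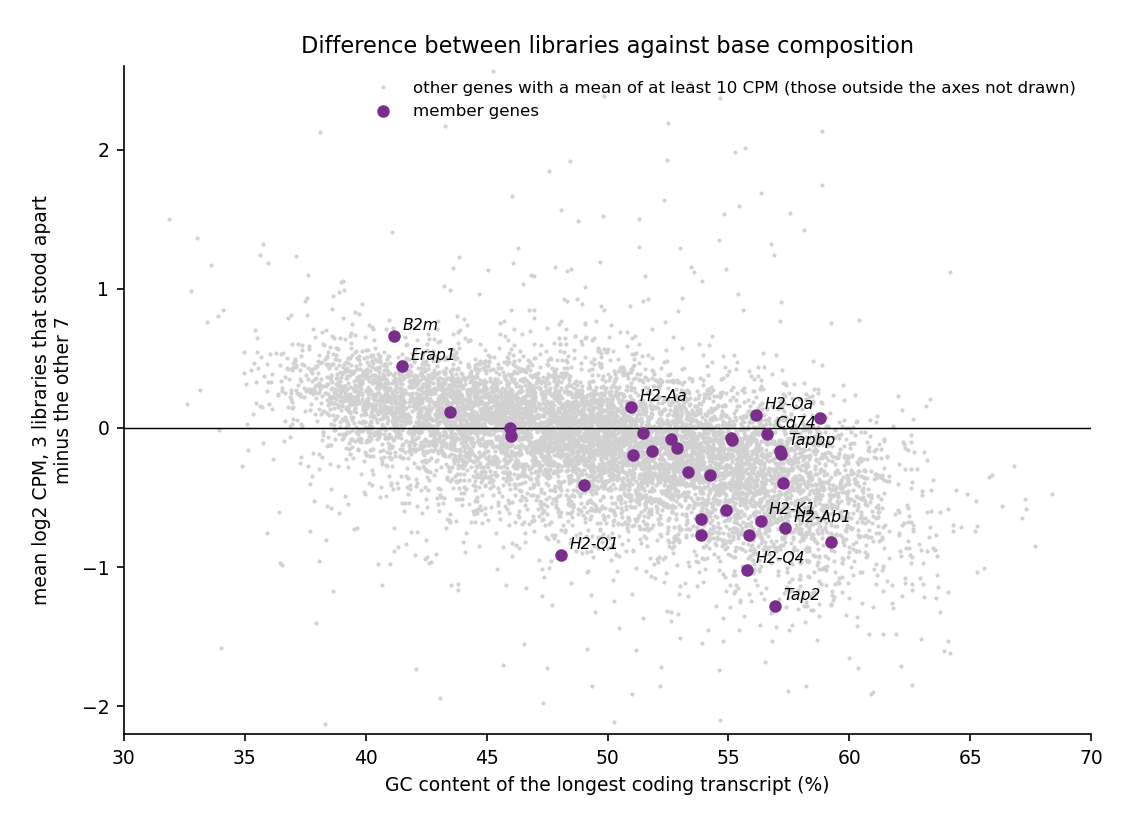
Mean log2 CPM in the 3 libraries that stood apart minus that in the other 7, against the GC content of the longest coding transcript (%), for the 32 members (purple) and for other genes with a mean of at least 10 CPM (grey). GC content was among the measures that set the 3 libraries apart. B2m and Erap1 lie at the GC-poor, positive end, at 0.66 and 0.44, and Tap2 is the lowest member at -1.28, while Tapbp and Cd74 of like GC content lie near 0.

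The rest of the pathway was taken from 10 lists with 71 gene symbols, of which 68 were listed. The symbols include both the older and the newer names of March1 and March8, so the genes are fewer than the symbols. The estimate was above 0 for 35 and below 0 for 33, with a median of 0.00095, and 0 were called. Those at an unadjusted p under 0.05 numbered 3 (4.41%, beside 4.51% of all genes), 1 higher and 2 lower in Chat+ cells, and 2 of the 68 (2.94%, beside 1.43% of all genes) had groups that did not overlap.

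Rfx5, the DNA-binding subunit of the RFX complex on X boxes, had 111, 88.6, 100.2, 94.99 and 97.3 CPM in Chat+ libraries, against 128, 122, 129, 118 and 113 CPM in Chat- libraries. All Chat+ libraries lay below all Chat- libraries, with a log2 fold change of -0.31 ± 0.09 and a limma adjusted p of 0.545. Without the 3 libraries that stood apart it was -0.33, with an adjusted p of 0.310. Its partner Rfxank averaged 25.7 ± 2.1 CPM in Chat+ cells and 28.1 ± 2.4 CPM in Chat- cells, and Nfyc, a subunit of NF-Y, 46.8 ± 2.4 CPM in Chat+ cells and 51.3 ± 5.1 CPM in Chat- cells, both with overlap. In all, 6 of the 7 shared factors of MHC promoters had an estimate below 0, with a median of -0.13, and 0 passed. Of the members whose promoter stretches are shown above, 0 passed the test.

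Cd9, a tetraspanin found with class II molecules on the cell surface and on exosomes, had 22.9, 37.6, 29.1, 20.1 and 30.2 CPM in Chat+ libraries, against 18.7, 10.7, 13.6, 19.8 and 16.3 CPM in Chat- libraries. All Chat+ libraries lay above all Chat- libraries, the 2 nearest at 20.1 CPM in Chat+ and 19.8 CPM in Chat-, with a log2 fold change of 0.82 ± 0.21 and a limma adjusted p of 0.422. Cd83, which protects class II from ubiquitin-driven turnover, had 132, 129, 132, 132 and 153 CPM in Chat+ libraries, against 176, 153, 155, 148 and 158 CPM in Chat- libraries. The groups overlapped through a single Chat+ library, replicate 5, and the log2 fold change was -0.22 ± 0.09 with a limma adjusted p of 0.999. Without the 3 libraries that stood apart it was -0.29, with an adjusted p of 0.229. March8, a ubiquitin ligase, averaged 2.79 ± 0.90 CPM in Chat+ cells and 1.57 ± 0.68 CPM in Chat- cells, and Sppl2a, which cleaves the last stub of the invariant chain, 134 ± 16.95 CPM in Chat+ cells and 142 ± 26.6 CPM in Chat- cells.

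In the other lists 0 genes passed either threshold. Of the 10 inducers of MHC transcription 9 had an estimate below 0. The myeloid and B cell factor Spi1 averaged 89.6 ± 15.8 CPM in Chat+ cells and 100.04 ± 9.46 CPM in Chat- cells. The estimate above 0 was that of the kinase Jak2, with 149 ± 20.6 CPM in Chat+ cells and 127 ± 13.1 CPM in Chat- cells. Prdm1, which represses Ciita in plasma cells, was at 2.41 ± 0.76 CPM in Chat+ cells and 2.33 ± 1.21 CPM in Chat- cells. Of the 7 chaperones of class I loading and folding 6 were above 0 (median 0.12), such as Hspa5 (400.3 ± 41.6 CPM in Chat+ cells and 363 ± 43.7 CPM in Chat- cells), Pdia3 (286 ± 55.7 CPM in Chat+ cells and 261 ± 20.97 CPM in Chat- cells) and Uggt1 (146 ± 15.3 CPM in Chat+ cells and 132 ± 19.4 CPM in Chat- cells).

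Of the 10 genes of peptide supply and trimming 9 were above 0 (median 0.08). The proteasome activator subunit Psme2 averaged 141 ± 22.003 CPM in Chat+ cells and 124 ± 41.2 CPM in Chat- cells, and its estimate, 0.26, was 0.08 without the 3 libraries that stood apart. Of the aminopeptidases, Npepps averaged 96.2 ± 9.2 CPM in Chat+ cells and 90.3 ± 8.2 CPM in Chat- cells, and Lnpep 359 ± 90.7 CPM in Chat+ cells and 334 ± 84.0 CPM in Chat- cells. Of the 12 endosomal proteases and inhibitors 9 were above 0 (median 0.08). The aspartic protease Napsa averaged 552 ± 60.7 CPM in Chat+ cells and 491 ± 38.1 CPM in Chat- cells, and Ctse, cathepsin E, 22.9 ± 8.9 CPM in Chat+ cells and 16.3 ± 5.3 CPM in Chat- cells. Ctsl, cathepsin L, averaged 8.83 ± 1.37 CPM in Chat+ cells and 13.1 ± 7.0 CPM in Chat- cells, where Chat- replicate 4, the library with the highest macrophage marker sum, had 25.4 CPM and the other Chat- libraries 8.33 to 11.2 CPM.

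Of the uptake and endosome genes 2 of 10 were above 0, one of them Cd9. The lysosomal Lamp2 averaged 69.6 ± 9.2 CPM in Chat+ cells and 80.0 ± 25.4 CPM in Chat- cells, and Tfeb, a regulator of lysosomal genes, 108 ± 33.4 CPM in Chat+ cells and 122 ± 29.4 CPM in Chat- cells. The lipid-presenting Cd1d1 averaged 48.8 ± 7.7 CPM in Chat+ cells and 43.0 ± 11.5 CPM in Chat- cells, and Mr1, which presents microbial metabolites, 9.01 ± 1.14 CPM in Chat+ cells and 9.16 ± 0.68 CPM in Chat- cells. Among receptors of B cells, Pirb, an inhibitory receptor that binds class I molecules, averaged 113 ± 24.9 CPM in Chat+ cells and 102 ± 20.6 CPM in Chat- cells. Cd72, an inhibitory coreceptor, averaged 240 ± 80.2 CPM in Chat+ cells and 312 ± 87.6 CPM in Chat- cells, with overlap. Lilrb4a averaged 7.41 ± 1.47 CPM in Chat+ cells and 6.61 ± 5.83 CPM in Chat- cells, where Chat- replicate 4 had 16.9 CPM and the other 4 Chat- libraries 3.18 to 5.65 CPM. Its log2 fold change was 0.46 in all libraries and 0.97 without the 3 that stood apart, with a limma adjusted p of 0.292 then. The estimates of Cd72 (-0.41), Ctse (0.47) and Ctsl (-0.46) were nearer to 0 without those libraries, at -0.20 for Cd72, 0.23 for Ctse and -0.18 for Ctsl.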

How the data were processed

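The authors extracted total RNA from the sorted cells with a column kit and made strand-specific Illumina libraries, per the labels' protocols. Per the submitters' processing notes, the tools were cutadapt 2.6 for trimming and Salmon 0.14.2 for quantification, with the build GRCm38.p6. The strand setting and transcript annotation were not given in the sources used here. The deposited values are log2 values that share 1 lowest value, -3.1228 in all 10 libraries. With that offset (0.1148 CPM, 3.0 reads at the mean depth of 26130000) removed, each library sums to 1000000 CPM, and every fold change here keeps that offset, which understates low genes. Depth was estimated from the steps between low values. Of the values under 3 CPM, 35.4% to 48.7% were whole reads within 0.001, so no count test was run.

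The deposited log2 values went into limma 3.58.1 under R 4.3.3 (lmFit, eBayes with a mean-variance trend, group as the only term, two-sided, Benjamini-Hochberg over all genes, threshold 0.05). A filter of 10 reads at the mean depth in 5 libraries removed 0 of 14450 genes. All 32 members had a value above the lowest in every library, and none was lost to the filter. Symbols, lengths, GC content and coordinates came from GENCODE M21 (GRCm38), matched for 14391 genes, and promoters from RefSeq (GRCm38.p6). Shared sequence was measured by cutting transcripts into 31-base words and counting those that another gene also holds. Python 3.11.15 was used for tables (pandas 2.3.3, numpy 2.4.6) and plots (matplotlib 3.10.9).

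Every member was counted. Named with each library were the classical class I and class II genes, the editors, regulators, loading and processing genes, and of each other pathway list the 3 genes with the smallest p, apart from an item that is not reported here. The members, lists and tests were chosen with earlier results of these data known. Alternatives changed the variance trend, library weights, scaling, offset, filter, replicate block and the libraries used. Leaving out 3 libraries and the GC adjustment were chosen after seeing the data.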

Additional observations from a re-analysis of the deposited data

Results flagged for a closer look

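In each group of 5 libraries, the gap of the highest or lowest library to its neighbour was set against Dixon's critical value for every member (log2 values) and for the ratio of class II to class I. Of 66 such checks 9 were past it, where chance gives about 1 in 20 for a single check. The checks share libraries, and all 9 fell in Chat+ replicate 5 or Chat- replicate 4, so their number is no measure of an excess over chance. In Chat+ cells all 3 were low values of replicate 5. H2-Q7 had 476 CPM there and 791 to 900 CPM in the other Chat+ libraries, H2-Q10 had 59.1 CPM against 113 to 131 CPM, and H2-DMb1 had 148 CPM against 267 to 312 CPM. Chat- replicate 5 was the lowest Chat- library for H2-Q7 (593 CPM) and H2-Q10 (85.8 CPM), without passing the critical value.

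In Chat- cells all 6 were low values of replicate 4. H2-K1 had 1454 CPM there and 2234 to 2651 CPM in the other Chat- libraries, and H2-D1 had 1032 CPM against 2071 to 2498 CPM. H2-Ab1 had 1775 CPM against 3310 to 3642 CPM, H2-DMb2 had 692 CPM against 932 to 1033 CPM, and Cd74 had 9424 CPM against 10959 to 11494 CPM. Tap2 had 82.1 CPM against 202 to 248 CPM. That library also had the highest mitochondrial share, 11.9%, and the highest sum of monocyte and macrophage markers, 240.9 CPM. Their part in the low values was not tested.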

How the results depend on the processing

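Under every alternative tried 0 of the 32 members passed the adjusted threshold, and the smallest adjusted p of any member was 0.076 (H2-DMb1, with a replicate block and without Chat- replicate 4). The 1239 values of 59 named genes under the alternatives changed no call, and the largest shift of a member was 0.40 on the log2 scale. The estimate of up to 12 members changed sign (without Chat+ replicate 5). The number of all genes called, 1, was 3 without a variance trend, 105 with library quality weights, 6 with a replicate block, 82 with a replicate block and without Chat- replicate 4, and 17 without the 3 libraries that stood apart. It ranged between 1 and 6 when single libraries were left out, reaching 6 without Chat+ replicate 5 and without Chat- replicate 4. Members at an unadjusted p under 0.05, 1 in all libraries, were 3 without the 3 libraries. With the block and without Chat- replicate 4 they were 9 (H2-DMb1, H2-T23, Tapbpl, H2-Q4, H2-Ab1, Tap2, H2-D1, H2-Ob and, higher in Chat+, Erap1). The share of all genes at that p in that fit is not given here, and 82 genes were called in it. The 9 can therefore not be read as an excess among the members. The causes were not tested. Same-numbered libraries correlated at -0.20 to 0.23 in their deviations, not above 0.1 in every pair, although for 3 of 5 numbers the best match was the own number. The numbers were therefore not taken to pair the libraries, and the replicate block is an alternative only. The replicate 5 libraries were alike in some members. H2-Ob over H2-Oa was lowest in each group there, at 5.36 in Chat+ and 5.44 in Chat-. H2-DMb2 over H2-DMb1 was highest in each group there, at 7.06 in Chat+ and 5.24 in Chat-. Whether same-numbered libraries share a source was not tested. The difference of class II and class I sums on the log2 scale, -0.01, ranged between -0.13 and 0.10 over the alternatives. The median log2 fold change of all genes, 0.04, was 0.0039 after median scaling. The 5 libraries per group limit what can be seen in genes with wide spread, such as Tap2 and the H2-Q genes, and the lowest members, H2-Q1 and H2-Q2, also carry counting error.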

Other observations

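Besides the members, 5 rows with an H2- symbol are annotated as pseudogenes or polymorphic pseudogenes, and 0 were called. H2-Q5 averaged 167 ± 57.6 CPM in Chat+ cells and 188 ± 36.3 CPM in Chat- cells (SD over 5 libraries each), and its highest value in the 3 libraries that stood apart, 152 CPM, lay below its lowest in the other 7, 160 CPM. H2-K2 averaged 80.7 ± 33.5 CPM in Chat+ cells and 83.4 ± 26.4 CPM in Chat- cells, and H2-T10, whose words are shared with H2-T22, 78.3 ± 19.1 CPM in Chat+ cells and 70.4 ± 17.2 CPM in Chat- cells. H2-T-ps averaged 10.6 ± 5.3 CPM in Chat+ cells and 10.996 ± 4.02 CPM in Chat- cells, and H2-Bl 5.35 ± 1.38 CPM in Chat+ cells and 7.08 ± 4.55 CPM in Chat- cells. In Chat- replicate 4 H2-Bl had 14.2 CPM, against at most 7.89 CPM in the other 9 libraries.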
